A study of Mus musculus with 12 samples.

Results

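Hepcidin, the liver hormone that limits iron entry into the blood, and the genes that sense, carry, store and export iron were followed in control and Yap/Taz knockout hepatocytes, before and after acute liver injury. The set held 10 genes, found by their symbols among the 37141 rows of the counts table: the hepcidin genes Hamp and Hamp2, the transferrin receptors Tfrc and Tfr2, the iron exporter ferroportin (Slc40a1), the ferritin chains Fth1 and Ftl1, transferrin (Trf), Hfe and the ligand Bmp6. The set was chosen by symbol with earlier results of these data known, and was selected on measured values in that Hamp2 stood among the largest falls in counts after injury. The differences of Hamp2 between injured and uninjured libraries are therefore a description and carry no test, while its comparisons between the genotypes, which that choice did not use, were tested.

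Hepatocytes were sorted by flow cytometry from perfused livers of mice with floxed Yap and Taz alleles, with 500000 cells per library, and the study asked whether these effectors of the Hippo pathway matter for the response to injury. The 4 groups held 3 libraries each. The Yap/Taz KO + CCl4 group was Yapflox/flox; Tazflox/flox mice given 5e11 genome copies of AAV8-TBG-Cre by tail vein, in which the hepatocyte TBG promoter drives Cre, and 3 weeks later the hepatotoxin carbon tetrachloride (CCl4) at 1 ml/kg in corn oil, with collection after 48 h. The ctrl + CCl4 group carried the same floxed alleles and received CCl4 alone, the Yap/Taz KO group received AAV8-TBG-Cre alone and was collected after 3 weeks, and the ctrl group carried the floxed alleles with neither agent. The labels name no control vector and no vehicle injection, and give neither age nor sex. Differences between knockout and control libraries therefore cannot be told apart from an effect of the vector or of Cre. The labels do not say that the libraries of a group came from separate animals, so each p-value measures the spread between libraries, which may be technical.

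Total counts lay between 1617761 and 3028951 per library, and the 10 genes together took 1.43 to 1.86% of each library. Levels are given as CPM, counts relative to library size, after TMM scaling, which sets the bulk of genes level between libraries. None of the 14 hepatocyte markers was at 0 in any group, and their summed level was 115838 to 134668 CPM in Yap/Taz KO + CCl4, 78417 to 97931 CPM in ctrl + CCl4, 167300 to 206704 CPM in Yap/Taz KO and 152681 to 195405 CPM in ctrl libraries. Yap1 averaged 14.5 ± 0.31 CPM in Yap/Taz KO + CCl4, 56.6 ± 8.0 CPM in ctrl + CCl4, 15.6 ± 6.3 CPM in Yap/Taz KO and 58.0 ± 16.1 CPM in ctrl libraries (SD, n = 3 each). Wwtr1, which encodes TAZ, averaged 23.3 ± 3.0, 33.7 ± 1.1, 14.7 ± 4.2 and 38.9 ± 17.1 CPM in the same order. The knockout difference on the log2 scale was -1.89 for Yap1 and -1.40 for Wwtr1 in uninjured hepatocytes. In injured ones it was -1.96 and -0.53. In that order, edgeR called none of these (adjusted p = 0.102, 0.235, 0.0995 and 0.983). Some alternative fits called Yap1 in both states and Wwtr1 in uninjured hepatocytes, but none called Wwtr1 in injured ones. The library ctrl replicate 1 stood apart in markers of other cells: its macrophage and Kupffer cell markers summed to 3033 CPM, against 577 and 762 CPM in the other ctrl libraries, its sinusoidal endothelial markers to 1967 CPM and its erythroid markers to 1588 CPM. Values of the members after injury in controls that moved by over 1.5 times without it are given both ways.

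As background, hepcidin is secreted by hepatocytes, binds ferroportin on enterocytes and macrophages and causes its removal from the cell surface, so that less iron reaches plasma. BMP6 and BMP2 from sinusoidal endothelial cells raise Hamp transcription through SMAD proteins when iron is plentiful, with TFR2, HFE and the coreceptor hemojuvelin as the hepatocyte's iron sensors, and interleukin 6 raises it through STAT3 during inflammation. The mouse has a pair of hepcidin genes, and in mice forced expression of Hamp, but not of Hamp2, causes iron deficiency. Inside the cell, iron regulatory proteins bind RNA hairpins called iron-responsive elements when iron is scarce, which blocks translation of ferritin and ferroportin and stabilises the Tfrc transcript.

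The promoters of the hepcidin genes are shown first because the genes are near-copies that differed most in these data. On GRCm38, Hamp lies at chr7:30942368-30944032 and Hamp2 at chr7:30922372-30924681, both on the minus strand, with 17686 bases between them. The 250 bases before each start are given 5′ to 3′ on the minus strand from RefSeq (GRCm38.p6), at chr7:30944030-30944279 for Hamp and chr7:30924182-30924431 for Hamp2. The gene intervals are those of GENCODE, and the RefSeq start lies 3 bases inside that interval for Hamp and 500 bases inside it for Hamp2, so the Hamp2 window falls within the longer GENCODE gene. Capitals mark the hexamer GGCGCC, the core of a BMP response element, or the letters aligned to it, and then a match to TTCNNNGAA, the form of a STAT site.
Hamp: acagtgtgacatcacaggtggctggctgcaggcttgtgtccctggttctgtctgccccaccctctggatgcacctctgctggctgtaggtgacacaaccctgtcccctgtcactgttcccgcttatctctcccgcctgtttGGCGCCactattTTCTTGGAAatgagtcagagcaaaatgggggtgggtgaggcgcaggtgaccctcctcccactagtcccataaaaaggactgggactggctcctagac
Hamp2: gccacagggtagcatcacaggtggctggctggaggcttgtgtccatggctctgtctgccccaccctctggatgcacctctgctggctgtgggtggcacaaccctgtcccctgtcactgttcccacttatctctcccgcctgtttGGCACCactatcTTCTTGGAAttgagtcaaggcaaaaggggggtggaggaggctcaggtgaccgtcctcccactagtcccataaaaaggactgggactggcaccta
The windows aligned over 247 bases, of which 227 (91.9%) were identical. The hexamer began at -109 in the Hamp window, counted back from the start, and the aligned letters in the Hamp2 window, at -106, differed by the substitution G4A, counted from 1 at the 5′ end of the hexamer with the Hamp base first. The STAT form read TTCTTGGAA in both windows, at -97 for Hamp and -94 for Hamp2. On either strand, GGCGCC was present in 9.59% of 32851 mouse promoter windows, TTCNNNGAA in 7.02% and the E-box CACGTG in 6.02%. Of the 10 genes, 8 had a window in the table, and among the other 6 of them the only matches were GGCGCC in a Tfrc window at -89 and CACGTG in the Bmp6 window at -127. A match describes letters and not binding.

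Hamp, which encodes the iron-regulating hormone, was highest in injured knockout hepatocytes and lay at similar levels in the other 3 groups. It was at 2601, 2459.6 and 4549.8 CPM in the Yap/Taz KO + CCl4 libraries, 1695, 1655 and 1706 CPM in the ctrl + CCl4 libraries, 1779, 2427 and 1013 CPM in the Yap/Taz KO libraries and 988, 1797 and 1006 CPM in the ctrl libraries. All 3 injured knockout libraries lay above all the others, and the other 3 groups overlapped in the order of their means (1739.5 ± 708 CPM in Yap/Taz KO, 1685 ± 26.9 CPM in ctrl + CCl4 and 1264 ± 462 CPM in ctrl, SD, n = 3 each). The injured controls were the most alike, from 1655 to 1706 CPM. Where groups are said not to overlap, here and below, this is a description. The share of all genes whose groups do not overlap was not counted.

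**Figure D1:**
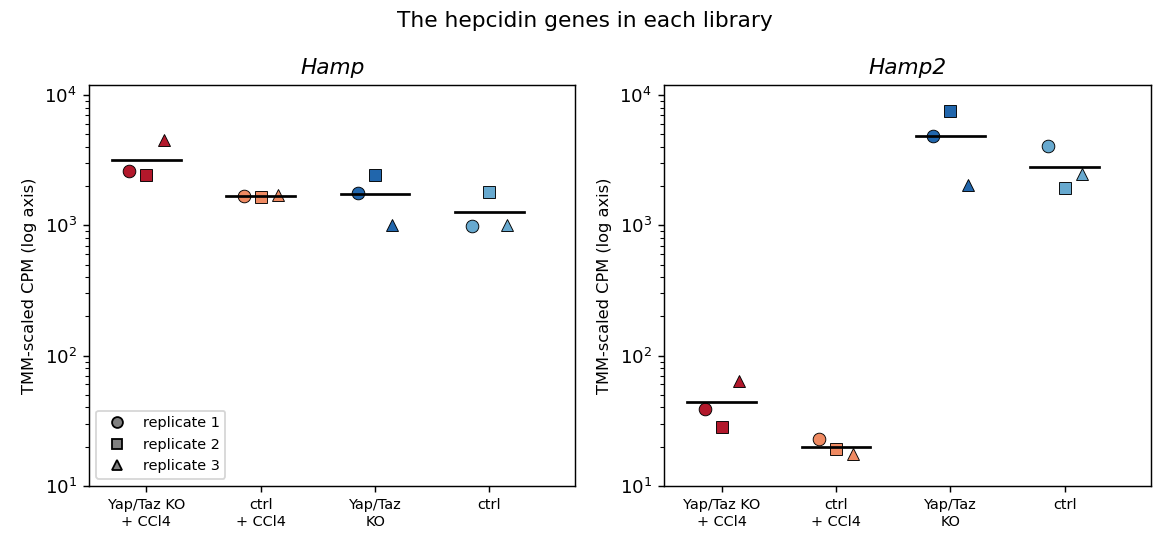
Levels of Hamp and Hamp2 in each library as TMM-scaled CPM on a log axis, by group; point shapes give the replicate number and bars the group mean (n = 3). Hamp spans 988 to 4549.8 CPM over all 12 libraries, while Hamp2 lies at 17.4 to 63.7 CPM in injured libraries and 1953 to 7627 CPM in uninjured libraries.

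After injury the fitted difference of Hamp was 0.88 on the log2 scale in knockout hepatocytes (SE 0.33, 95% interval 0.18 to 1.58), with no overlap between the groups, and edgeR's quasi-likelihood test gave an adjusted p of 0.0803. In controls it was 0.42 (SE 0.33, adjusted p = 0.406 by edgeR), with overlap, and lay between 0.27 without ctrl replicate 1 and 0.76 without ctrl replicate 2. Neither passed the threshold of 0.05 over all 10780 genes tested, and the difference between the responses was 0.47 (SE 0.46, adjusted p = 0.809 by the interaction), or 0.12 without ctrl replicate 2 and 0.78 without Yap/Taz KO replicate 2. The knockout response of Hamp did pass with DESeq2 (0.90, adjusted p = 0.037), with library totals (1.29, adjusted p = 0.0105), with no low-count filter (0.89, adjusted p = 0.00247) and without Yap/Taz KO replicate 2 (1.20, adjusted p = 0.0436). Without Yap/Taz KO + CCl4 replicate 3 it was 0.54 (adjusted p = 0.334).

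Hamp2, the near-copy, was abundant in uninjured hepatocytes and low in injured ones. Its level was 39.1, 28.1 and 63.7 CPM in the Yap/Taz KO + CCl4 libraries and 22.7, 19.2 and 17.4 CPM in the ctrl + CCl4 libraries. The uninjured libraries were at 4894, 7627 and 2027 CPM in the Yap/Taz KO group and at 4058, 1953 and 2466 CPM in the ctrl group. The lowest uninjured library thus held many times the highest injured one, and uninjured knockouts and controls overlapped. As a description, Hamp2 was 111-fold lower in Yap/Taz KO + CCl4 than in Yap/Taz KO (log2 difference -6.79, SE 0.52) and 143-fold lower in ctrl + CCl4 than in ctrl (-7.16, SE 0.53), the third and the seventh lowest of 10780 genes. Over the 18 alternatives tried, these values ranged from -7.17 to -6.31 in knockouts and from -7.36 to -6.79 in controls.

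Some hepatocyte markers were lower in the same libraries. Of the 14 markers, 5 were called lower and 0 higher in injured knockouts (median log2 difference -0.82), against 8.35% of all 10780 tested genes called lower and 9.42% called higher. In injured controls 11 were called lower and 0 higher (median -0.98), against 12% and 10.5% of all genes, and the median over all genes was 0.03 in each. In these sorted bulk libraries, fewer cells of a type and less RNA per cell cannot be told apart. What part the fall of hepatocyte markers has in the values of Hamp2, and of Tfr2, Tmprss6 and Cebpa below, was not tested.

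The pair exchanged places in the hepcidin reads. Hamp2 took 1.48, 1.13 and 1.38% of the reads assigned to Hamp or Hamp2 in the Yap/Taz KO + CCl4 libraries and 1.32, 1.15 and 1.01% in the ctrl + CCl4 libraries. It took 73.3, 75.9 and 66.7% in the Yap/Taz KO libraries and 80.4, 52.1 and 71.0% in the ctrl libraries. Exact (Clopper-Pearson) 95% binomial intervals, which cover counting error only, ran from 50.9 to 53.2% for the ctrl library at 52.1% and from 0.759 to 1.32% for the ctrl + CCl4 library at 1.01%. The knockout and control shares overlapped in each injury state.

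**Figure D2:**
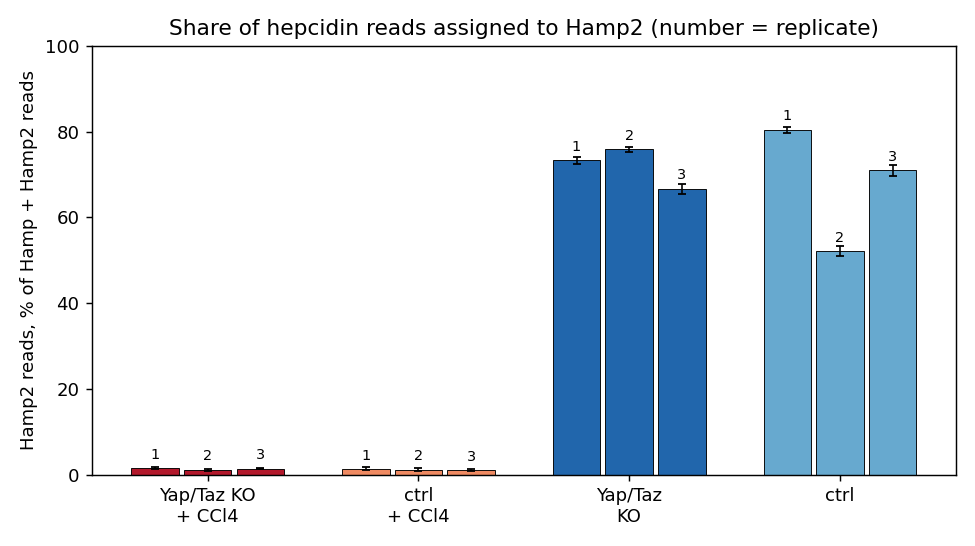
Share of Hamp2 in the reads assigned to Hamp or Hamp2, in percent, for each library; numbers above the bars are replicate numbers and error bars are exact 95% binomial intervals. The 6 injured libraries lie between 1.01 and 1.48% and the 6 uninjured libraries between 52.1 and 80.4%.

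The summed level of Hamp and Hamp2 was 2488 to 4614 CPM in Yap/Taz KO + CCl4 and 1674 to 1723 CPM in ctrl + CCl4 libraries, against 3039.7 to 10054 CPM in Yap/Taz KO and 3472 to 5046 CPM in ctrl libraries. The sums overlapped between injured and uninjured knockouts and did not overlap between injured and uninjured controls. The log2 ratio of Hamp to Hamp2 reads averaged 6.22 ± 0.21 in Yap/Taz KO + CCl4 and 6.42 ± 0.20 in ctrl + CCl4 (SD, n = 3 each, exact two-sided permutation p = 0.3, 0.6 adjusted over 2 comparisons). It averaged -1.37 ± 0.33 in Yap/Taz KO and -1.15 ± 0.97 in ctrl (SD, n = 3 each, exact two-sided permutation p = 0.8, 0.8 adjusted). With 3 against 3 libraries the smallest p this test allows is 0.1. The last 200 bases of the transcripts, where 3' tags fall, aligned over 173 bases with 155 identical (89.6%) and a longest identical run of 52 bases, so reads short enough to lie in such a run could be assigned to either gene.

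Knockout of Yap and Taz was accompanied by higher mean levels of both hepcidin genes, without a call. In injured hepatocytes the difference of Yap/Taz KO + CCl4 over ctrl + CCl4 was 0.93 for Hamp (SE 0.33, interval 0.22 to 1.63, adjusted p = 0.803 by edgeR) and 1.14 for Hamp2 (SE 0.43, interval 0.22 to 2.07, adjusted p = 0.827 by edgeR), and for both genes the groups did not overlap. In uninjured hepatocytes it was 0.46 for Hamp (SE 0.33, adjusted p = 0.694 by edgeR) and 0.78 for Hamp2 (SE 0.41, adjusted p = 0.567 by edgeR), with overlap. Single libraries moved these values: in uninjured hepatocytes Hamp was at 0.15 without Yap/Taz KO replicate 2 and 0.81 without ctrl replicate 2, and Hamp2 at 0.30 and 1.15 without Yap/Taz KO replicates 2 and 3, while in injured hepatocytes Hamp was at 0.59 without Yap/Taz KO + CCl4 replicate 3. None of the 8 genes of the set that could be tested was called in either knockout comparison, where edgeR called 0% of all 10780 genes (1020 genes at an unadjusted p under 0.05 in uninjured and 613 in injured hepatocytes, and 43 and 17 genes called by DESeq2). At an unadjusted p under 0.05, Hamp and Hamp2 were the members past it in injured hepatocytes, DESeq2 called neither, and with no low-count filter both were called (adjusted p = 0.019 for Hamp and 0.00161 for Hamp2). Injured libraries held 54 to 203 Hamp2 counts beside 4629 to 14489 Hamp counts. How many of these Hamp2 counts were Hamp reads assigned to the near-copy was not tested, so Hamp2 is not shown to differ apart from Hamp there.

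The difference between the 2 injury responses of Hamp2 was 0.36 (SE 0.59). It is built from the injury differences that the choice of the set used, so it is a description without a test. It depended on single libraries: it was -0.0137 without Yap/Taz KO + CCl4 replicate 3, -0.00933 without Yap/Taz KO replicate 3, 0.0066 without ctrl replicate 1 and 0.85 without Yap/Taz KO replicate 2. Of all genes, 0% were called in this comparison by edgeR, with 874 at an unadjusted p under 0.05 and 12 called by DESeq2.

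Tfr2, the transferrin receptor that hepatocytes use to sense transferrin-bound iron rather than to take it up (chr5:137569840-137587481, plus strand), was the member that fell past the threshold. It was at 136, 158 and 122 CPM in the Yap/Taz KO + CCl4 libraries and 116, 128 and 96.7 CPM in the ctrl + CCl4 libraries, against 239, 209.9 and 268 CPM in the Yap/Taz KO libraries and 197, 212 and 267 CPM in the ctrl libraries. Every injured library lay below every uninjured library, and knockouts overlapped with controls in both states. In knockouts Tfr2 fell by 0.78 on the log2 scale after injury (SE 0.21, adjusted p = 0.0163 by edgeR), and in controls it fell by 0.99 (SE 0.21, adjusted p = 0.00328 by edgeR), relative to the bulk of genes. The difference between the responses was 0.21 (SE 0.29, adjusted p = 0.872; 0.06 without ctrl replicate 3). The 14 hepatocyte markers had median log2 differences of -0.82 in knockouts and -0.98 in controls after injury. Their part in the Tfr2 values was not tested. The control call of Tfr2 held in all 18 alternatives. The knockout call was lost with library totals (-0.42, adjusted p = 0.17) and without Yap/Taz KO + CCl4 replicate 1, Yap/Taz KO + CCl4 replicate 3 or Yap/Taz KO replicate 3, with adjusted p of 0.0622, 0.0671 and 0.0648.

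Counting over the set, 7 genes besides Hamp2 could be tested in each injury response, Ftl1 and Bmp6 having too few reads. In knockouts 1 of the 7 was called lower and 0 higher, against 8.35% of all 10780 tested genes called lower and 9.42% called higher. In controls it was again 1 lower and 0 higher, against 12% and 10.5% of all genes. The median log2 difference of the 7 was -0.02 in knockouts and -0.14 in controls, beside 0.03 over all genes in each. The calls lie near the background, and DESeq2 called Hamp and Tfr2 in knockouts and Tfr2 in controls.

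**Figure D3:**
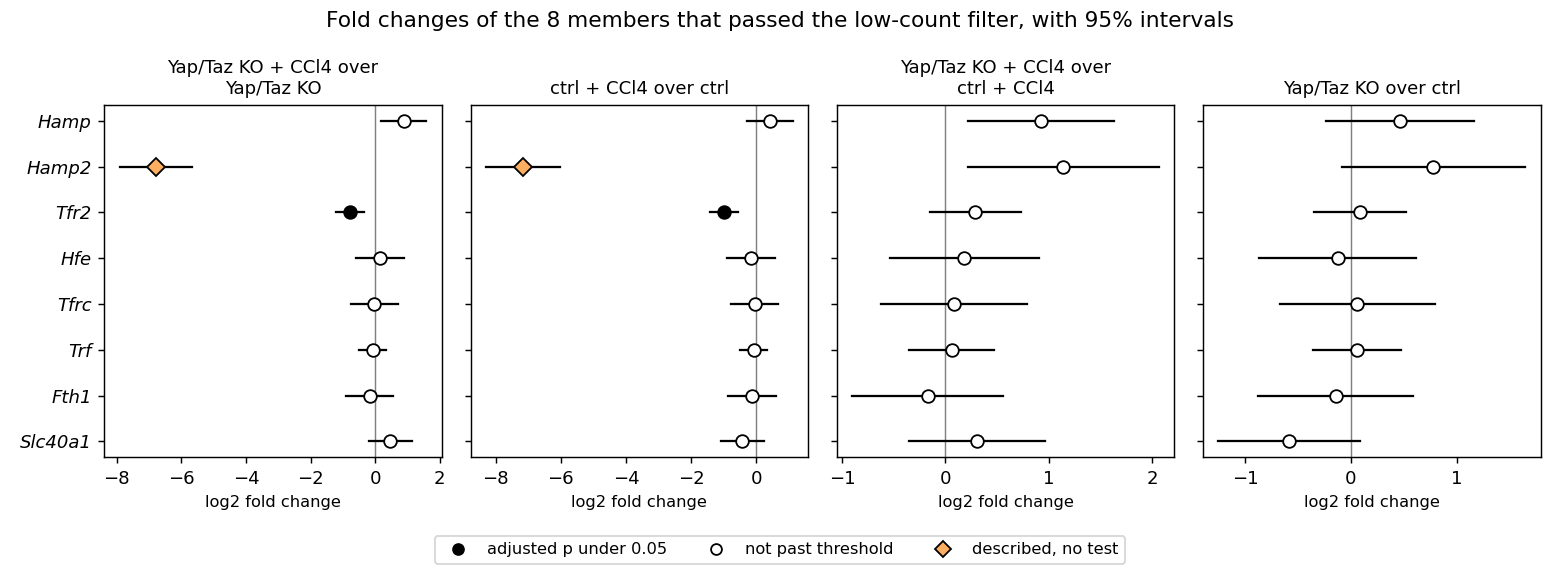
Fitted log2 fold changes of the 8 members that passed the low-count filter, with 95% intervals, in the injury response of Yap/Taz KO and of ctrl hepatocytes and for the knockout in injured and uninjured hepatocytes; filled circles are adjusted p under 0.05, open circles are not, and diamonds are described without a test. Tfr2 lies at -0.78 and -0.99 in the injury responses, Hamp2 at -6.79 and -7.16, and the other members' intervals other than that of Hamp in knockouts include 0 there.

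Hfe, whose product binds the transferrin receptors and takes part in iron sensing (chr13:23702034-23710854, minus strand), averaged 34.8 ± 3.0 CPM in Yap/Taz KO + CCl4, 30.5 ± 11.6 CPM in ctrl + CCl4, 31.3 ± 3.5 CPM in Yap/Taz KO and 33.7 ± 18.0 CPM in ctrl libraries (SD, n = 3 each). Its highest library was ctrl replicate 1 at 54.3 CPM, where the other ctrl libraries were at 20.6 and 26.3 CPM. The fitted injury difference was 0.15 in knockouts (interval -0.58 to 0.88) and -0.16 in controls (interval -0.89 to 0.58), and in controls it was 0.39 without ctrl replicate 1 and -0.50 without ctrl + CCl4 replicate 3. No direction was shown for Hfe.

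Tfrc, the receptor that brings transferrin-bound iron into cells (chr16:32608920-32632794, plus strand), was at 22.1 to 38.0 CPM in Yap/Taz KO + CCl4, 21.4 to 33.2 CPM in ctrl + CCl4, 25.6 to 33.8 CPM in Yap/Taz KO and 14.8 to 37.0 CPM in ctrl libraries. All 4 groups overlapped. Its fitted injury difference was -0.02 in knockouts (interval -0.74 to 0.69) and -0.05 in controls (interval -0.78 to 0.67), so changes of up to those bounds in either direction lie within the error. Left-out libraries set its sign: it lay between -0.30 and 0.12 in knockouts, without Yap/Taz KO + CCl4 replicates 3 and 1, and between -0.37 and 0.20 in controls, without ctrl replicates 1 and 3.

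Trf, the plasma iron carrier that hepatocytes secrete (chr9:103204001-103230444, minus strand), was the most abundant member. It lay at 8739 to 11197 CPM in Yap/Taz KO + CCl4, 8648 to 10417 CPM in ctrl + CCl4, 9469.5 to 11621 CPM in Yap/Taz KO and 9509 to 11152 CPM in ctrl libraries. Its intervals were the narrowest of the set: -0.49 to 0.34 around -0.07 for injury in knockouts, and -0.49 to 0.34 around -0.08 for injury in controls. With library totals the values were 0.29 in both, and no direction was shown for Trf.

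Fth1, the ferritin heavy chain with the ferroxidase that loads iron into the store (chr19:9980598-9985098, plus strand), was at 1697, 1711 and 1899 CPM in the Yap/Taz KO + CCl4 libraries and 1981, 872 and 3121 CPM in the ctrl + CCl4 libraries. The uninjured libraries were at 1899.5, 1901 and 2159 CPM in Yap/Taz KO and 1877, 1722 and 2987 CPM in ctrl. The injured controls spread more widely than any other group and spanned all the rest of the libraries, and the injured knockouts lay just below the uninjured ones. The fitted injury difference was -0.17 in knockouts (SE 0.34, adjusted p = 0.791 by edgeR) and -0.14 in controls (SE 0.34, adjusted p = 0.811 by edgeR). The control value rested on single libraries: it was 0.26 without ctrl + CCl4 replicate 2, -0.60 without ctrl + CCl4 replicate 3, 0.15 without ctrl replicate 3 and -0.24 without ctrl replicate 1. With library totals it was 0.30 in controls and 0.20 in knockouts.

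Slc40a1, which encodes ferroportin, the iron exporter that hepcidin acts on (chr1:45908068-45926523, minus strand), was at 211, 191 and 168 CPM in the Yap/Taz KO + CCl4 libraries and 162, 138 and 160.1 CPM in the ctrl + CCl4 libraries. The uninjured libraries were at 180.3, 77.2 and 155 CPM in Yap/Taz KO and 301, 138 and 179 CPM in ctrl. The injured knockouts lay above the injured controls without overlap, with a fitted difference of 0.31 (SE 0.31, adjusted p = 0.992 by edgeR). The highest library of all was ctrl replicate 1. The fitted injury difference was 0.47 in knockouts (SE 0.31, adjusted p = 0.339 by edgeR) and -0.43 in controls (SE 0.31, adjusted p = 0.364 by edgeR), and the difference between the responses was 0.89 (SE 0.44, adjusted p = 0.624 by the interaction). Without ctrl replicate 1, the control value was -0.04 and the difference between the responses 0.51. The control value was -0.64 without ctrl replicate 2, and the knockout value was 0.18 without Yap/Taz KO replicate 2 and 0.70 without Yap/Taz KO replicate 1. Macrophages and endothelial cells also express ferroportin: macrophage and Kupffer cell markers summed to 2210.4 to 3322 CPM in Yap/Taz KO + CCl4, 2696 to 4743 CPM in ctrl + CCl4, 296 to 1311 CPM in Yap/Taz KO and 577 to 3033 CPM in ctrl libraries, with none of the 15 markers at 0 in any group, and their part in the Slc40a1 values was not tested.

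**Figure D4:**
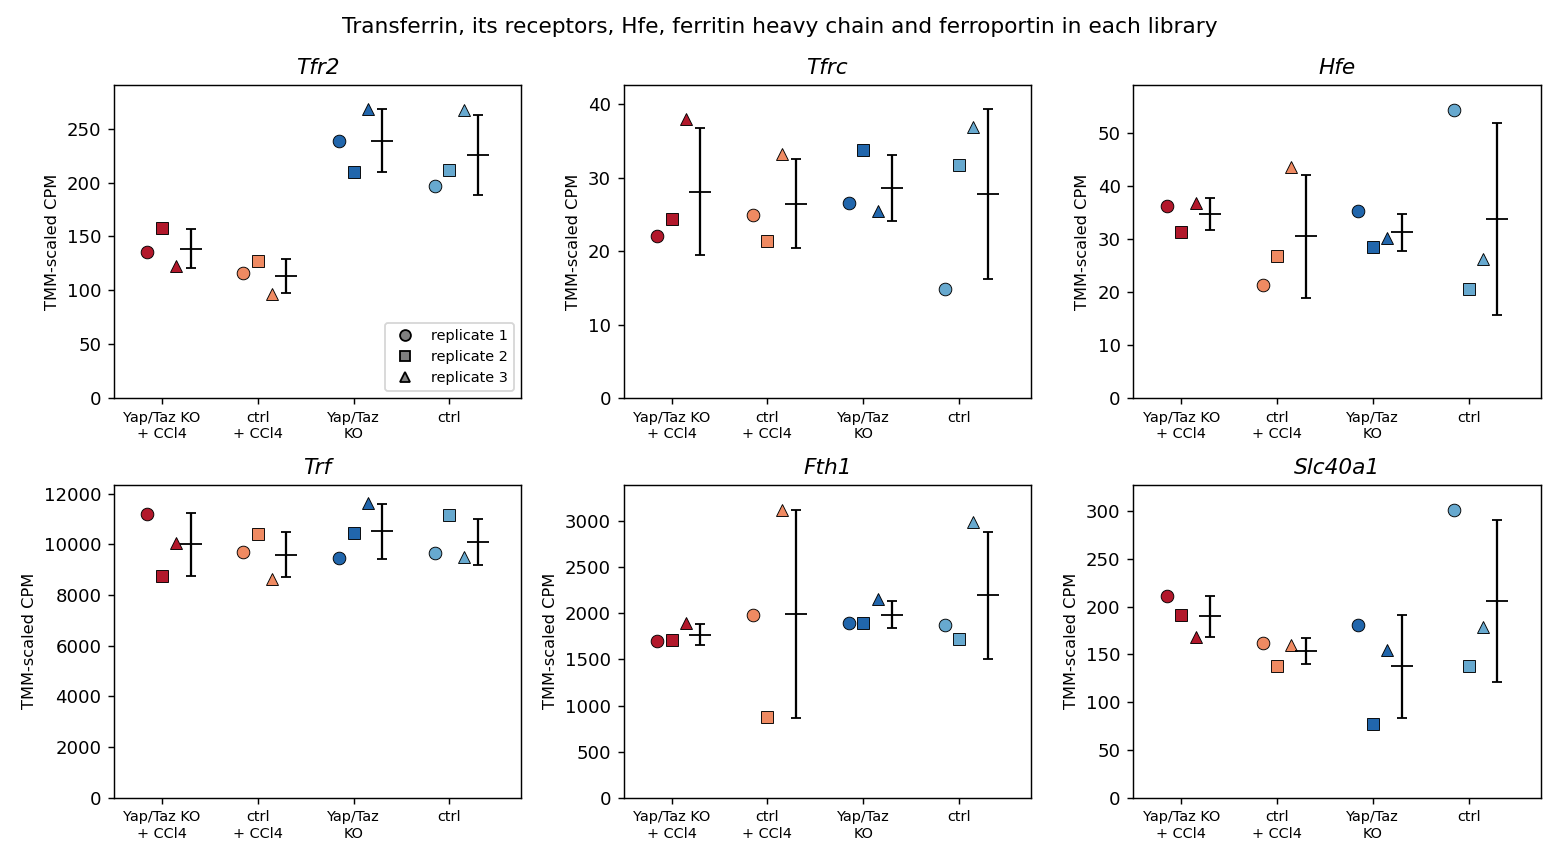
TMM-scaled CPM of Tfr2, Tfrc, Hfe, Trf, Fth1 and Slc40a1 in each library, by group; point shapes give the replicate number, and the horizontal mark and bar beside them the mean and SD (n = 3). The injured libraries of Tfr2 lie at 96.7 to 158 CPM and the uninjured ones at 197 to 268 CPM, while the groups of the other genes overlap, except that for Fth1 and Slc40a1 1 pair of groups each does not.

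The last members had few reads. Ftl1, the ferritin light chain (chr7:45457944-45459884, minus strand), held 43 counts over all 12 libraries, from 0 to 9 in a library, where Fth1 held 59499. Of the last 200 bases of its transcript, 199 (99.5%) are identical in the copy Ftl1-ps1, which held 13 counts, and the sources used here do not say how reads that fit both were counted, so the level of Ftl1 is uncertain. Bmp6, the ligand that signals iron plenty from endothelial cells (chr13:38345107-38500302, plus strand), held 2 counts in ctrl replicate 1, 1 count in Yap/Taz KO + CCl4 replicate 3 and 0 in the other 10 libraries. A count of 0 allows a level of up to 0.915 to 2.13 CPM, depending on the library.

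Transcripts of 4 members carry an iron-responsive element by sequence, and these are shown because they are the letters through which iron acts on ferritin, ferroportin and Tfrc. Each run below holds 30 bases from the GENCODE transcripts of GRCm38, 5′ to 3′ with T for U. Capitals mark the bulged C and the 6-base loop, CAGTG followed by A, C or T. The search required the 5 bases on each side of the loop to pair, with G to T allowed, and did not check the stem beyond the C. A transcript of Tfrc (chromosome 16) holds 4 elements in its 3′ UTR, the first of which is given. A transcript each of Slc40a1 (chromosome 1), Fth1 (chromosome 19) and Ftl1 (chromosome 7) holds 1 in the 5′ UTR. In that order of genes, 1 of 3, 1 of 4, 4 of 5 and 1 of 2 protein-coding transcripts held an element.
Tfrc: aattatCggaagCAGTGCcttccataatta
Slc40a1: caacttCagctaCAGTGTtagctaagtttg
Fth1: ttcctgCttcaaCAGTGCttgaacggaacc
Ftl1: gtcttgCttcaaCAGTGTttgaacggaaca
Such a hairpin was found in 426 of 58797 protein-coding transcripts (0.725%). Of the 4 genes, Tfrc, Slc40a1 and Fth1 could be tested, and none was called in any of the 5 comparisons. Control of translation, which the 5′ elements act on, is not seen in RNA counts.

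The other genes of iron biology were taken from 5 lists with 78 tested genes, drawn up with earlier results known. Together 7 were called higher and 8 lower after injury in knockouts, and 5 higher and 10 lower in controls, with medians of -0.03 and -0.20 beside 0.03 over all genes in each response. Of all genes, 9.42% were called higher and 8.35% lower in knockouts, and 10.5% higher and 12% lower in controls. Without ctrl replicate 1 the control counts were 12 higher and 13 lower. In the knockout comparisons and in the difference between responses none of the 78 was called, so a call in 1 genotype alone is not shown to differ from the other genotype. Where a list had at most 4 called genes in 1 direction of a response, those beyond the named pair were added after their values were seen (Acvr2a, Cd163, Slc11a1, Nfs1, Hpx in controls and Hp in knockouts).

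Among 20 tested genes of the BMP and SMAD arm of hepcidin control, Tmprss6 fell and Id1 rose in both genotypes. Tmprss6, the protease that cleaves hemojuvelin and so restrains Hamp, was at 119 ± 6.6 CPM in Yap/Taz KO + CCl4 and 90.2 ± 10.7 CPM in ctrl + CCl4, against 249 ± 14.5 CPM in Yap/Taz KO and 267 ± 72.0 CPM in ctrl libraries (SD, n = 3 each). Its log2 difference after injury was -1.07 in knockouts (SE 0.21, adjusted p = 0.00295 by edgeR) and -1.56 in controls (SE 0.22, adjusted p = 0.00014 by edgeR), and these calls held in all 18 alternatives. Id1, a direct target of BMP signalling, rose by 2.95 on the log2 scale in knockouts (SE 0.56, adjusted p = 0.00226; 3.60 without Yap/Taz KO replicate 2) and by 2.14 in controls (SE 0.54, adjusted p = 0.0103; 2.98 without ctrl replicate 1). Atoh8, Smad6 and Smad7, of the same list, were not called in either response. After injury the means were lower for Atoh8 and higher for Smad7 in both genotypes. Furin, the protease that matures pro-hepcidin, fell by 1.28 in knockouts (adjusted p = 0.0117) and by 1.14 in controls (adjusted p = 0.0182), calls lost in 4 and 3 of 18 alternatives, library totals among them. Inhbb, which encodes the activin B subunit, rose by 1.83 in controls (adjusted p = 0.0327), a call lost in 5 of 18 alternatives (3.05 without ctrl replicate 1). In knockouts Fkbp1a, which binds BMP type I receptors, rose by 0.73 (adjusted p = 0.0485) and the activin receptor Acvr2a fell by 1.52 (adjusted p = 0.0383), calls lost in 10 and 11 of 18 alternatives.

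In the arm of interleukin 6 and STAT3, 9 genes were tested. Cebpa, a hepatocyte transcription factor that Hamp expression depends on in mice, fell by 1.46 on the log2 scale in knockouts (SE 0.25, adjusted p = 0.00106) and by 1.40 in controls (SE 0.25, adjusted p = 0.00111), to 144 ± 5.1 CPM in Yap/Taz KO + CCl4 against 395 ± 125 CPM in Yap/Taz KO, and to 113 ± 19.7 CPM in ctrl + CCl4 against 298 ± 49.7 CPM in ctrl libraries (SD, n = 3 each). Creb3l3, a liver transcription factor of the endoplasmic reticulum, fell by 0.87 in knockouts (adjusted p = 0.0412), a call lost in 9 of 18 alternatives. In all, 0 of the 9 were called higher and 2 lower in knockouts, and 0 higher and 1 lower in controls, beside 9.42% higher and 8.35% lower and 10.5% higher and 12% lower of all genes. The calls were those of Cebpa and Creb3l3 alone. The receptor and signalling genes Il6ra, Il6st, Jak1, Jak2, Stat3 and Socs3 were not called in either response.

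Of 18 tested acute phase genes, which respond to the same cytokine as Hamp, 9 were called higher and 2 lower in injured knockouts, and 7 higher and 2 lower in injured controls. Over all genes the shares were 9.42% higher and 8.35% lower in knockouts and 10.5% higher and 12% lower in controls. This list, too, was drawn up with earlier results of these data known, so its counts are a description. Saa1, a serum amyloid, was at 3661 ± 955 CPM in Yap/Taz KO + CCl4 and 3222 ± 1713 CPM in ctrl + CCl4, against 131 ± 16.1 CPM in Yap/Taz KO and 159 ± 11.1 CPM in ctrl libraries (SD, n = 3 each), and rose by 4.81 and 4.34 on the log2 scale in knockouts and controls (adjusted p = 1.67e-06 and 3.97e-06). Crp, the C-reactive protein gene, fell by 1.45 in knockouts and 1.46 in controls, and Lbp, the lipopolysaccharide-binding protein gene, fell by 1.22 in both (adjusted p between 0.000145 and 0.00219). The median of the 18 genes was 0.98 in knockouts and 0.64 in controls.

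Among 17 tested genes of iron and haem transport, Lcn2, which binds the iron chelators of bacteria, moved furthest. It was at 718 ± 234 CPM in Yap/Taz KO + CCl4 and 594 ± 33.6 CPM in ctrl + CCl4, against 22.4 ± 1.6 CPM in Yap/Taz KO and 32.1 ± 8.7 CPM in ctrl libraries (SD, n = 3 each), a rise of 5.00 on the log2 scale in knockouts and 4.22 in controls (adjusted p = 3.43e-07 and 5.2e-07). Neutrophils also express Lcn2: markers of monocytes and neutrophils summed to 157 to 223 CPM in Yap/Taz KO + CCl4, 173 to 306 CPM in ctrl + CCl4, 7.72 to 25.4 CPM in Yap/Taz KO and 24.2 to 114 CPM in ctrl libraries, Ly6g being at 0 in all 4 groups and Csf3r in Yap/Taz KO. Their part in the Lcn2 values was not tested. The scavengers Hpx, which binds free haem, and Hp, which binds haemoglobin, rose by 1.51 and 1.12 in knockouts (adjusted p = 0.000724 and 0.00658) and by 1.10 and 1.49 in controls (adjusted p = 0.00483 and 0.000761).

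Of the same list, the folate and haem carrier Slc46a1 fell by 0.89 in knockouts (adjusted p = 0.0127) and by 0.81 in controls (adjusted p = 0.018), and the metal carrier Slc39a8 fell by 1.01 in controls (adjusted p = 0.032). Each of these calls was lost with library totals, and they were lost in 3, 6 and 6 of 18 alternatives in all. The remaining calls were of genes that macrophages express: Slc11a1 rose by 2.73 in knockouts (adjusted p = 0.0242, lost without Yap/Taz KO + CCl4 replicate 1 and without replicates 2 or 3 of Yap/Taz KO, and 4.79 without Yap/Taz KO replicate 1), and the haemoglobin receptor Cd163 fell by 1.95 in controls (adjusted p = 0.0354), or by 0.63 without ctrl replicate 1 (adjusted p = 0.394). Their macrophage marker sums are those given beside Slc40a1, and the part of macrophages was not tested.

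Inside the cell, 10 genes of iron sensing and haem breakdown and 22 genes of mitochondrial iron were tested. Aco1, the cytosolic aconitase that becomes iron regulatory protein 1 when it lacks its cluster, fell by 1.07 in controls (SE 0.24, adjusted p = 0.00514) to 54.8 ± 2.0 CPM in ctrl + CCl4, against 116 ± 34.9 CPM in ctrl libraries (SD, n = 3 each). Blvra, which reduces biliverdin from haem, rose by 1.78 in knockouts (SE 0.35, adjusted p = 0.00281) to 37.9 ± 12.5 CPM in Yap/Taz KO + CCl4, against 11.0 ± 3.1 CPM in Yap/Taz KO libraries (SD, n = 3 each). Of the 22 mitochondrial genes, 0 were called higher and 2 lower in knockouts, beside 9.42% and 8.35% of all genes, and 0 higher and 3 lower in controls, beside 10.5% and 12%. Fdx1, the ferredoxin that passes electrons to steroid hydroxylases, fell by 0.94 in knockouts (adjusted p = 0.00911) and by 1.61 in controls (adjusted p = 0.000159). The inner membrane transporter Abcb10 fell by 0.95 in knockouts (adjusted p = 0.0129) and by 1.13 in controls (adjusted p = 0.00388), and Nfs1, the cysteine desulfurase that supplies sulfur to clusters, fell by 1.36 in controls (adjusted p = 0.00789). With library totals the calls of Abcb10, of Nfs1 and of Fdx1 in knockouts were lost, and those of Fdx1 and Abcb10 in knockouts were lost in 2 and 5 of 18 alternatives in all.

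The hepcidin genes followed different genes across the libraries. By Pearson correlation of log2 CPM over the 12 libraries, among 10450 genes, Hamp2 was most like Cyp2j5 (0.992), a cytochrome P450, Slc27a5 (0.990), which activates bile acids, Selenbp1 (0.988), Nipsnap1 (0.987) and Serpina6 (0.987), the corticosteroid-binding globulin. Each of these was lower in injured libraries, by unlike amounts. Serpina6 was at 30.9 ± 9.5 CPM in Yap/Taz KO + CCl4 and 14.3 ± 1.2 CPM in ctrl + CCl4, against 384 ± 89.4 CPM in Yap/Taz KO and 375 ± 42.3 CPM in ctrl libraries (SD, n = 3 each). In the same order, Cyp2j5 was at 350 ± 10.2 and 289 ± 17.0 CPM, against 1048 ± 99.9 and 990 ± 58.4 CPM. Nipsnap1 was at 189 ± 17.2 and 153 ± 4.3 CPM, against 415 ± 25.4 and 349 ± 0.74 CPM. A high correlation here thus does not mean a fall as large as that of Hamp2. Hamp was most like Lysmd2 (0.902), Hypk (0.896), Tor1b (0.858), a torsin of the endoplasmic reticulum, Tmem97 (0.852) and Ociad2 (0.830). Lysmd2 had few reads, averaging 9.3 CPM in Yap/Taz KO + CCl4, 3.1 CPM in ctrl + CCl4, 2.1 CPM in Yap/Taz KO and 0.30 CPM in ctrl libraries. Hamp and Hamp2 correlated at -0.43. The 12 points share 4 groups and the scaling of their libraries, and the values are a description without a test.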

How the data were processed

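Sorted hepatocyte RNA was made into QuantSeq 3' FWD libraries, per the labels' protocols; tags come from transcript 3' ends, so counts do not scale with length. The deposited values are whole read counts by gene symbol, left unscaled by the authors. The submitters' processing notes list FastQC, cutadapt, STAR 2.6.1d and GRCm38 (mm10). The sources used here do not give the counter, the annotation or whether molecular identifiers were used.

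Sample labels gave the groups. Of 37141 rows, 17882 were at 0 in all 12 libraries, and edgeR's filterByExpr (minimum count 10, minimum total 15) left 10780, with 8 of the 10 genes. With edgeR 4.0.16 (R 4.3.3), TMM factors (0.776 to 1.312) and 1 coefficient per group, 5 contrasts were fitted: injury in each genotype, knockout with and without injury, and the interaction. Adjusted p-values in the text are from edgeR's quasi-likelihood test unless another is named, adjusted by Benjamini-Hochberg over all tested genes, with a threshold of 0.05, and SEs were derived from its F statistic. Directions are relative to the bulk of genes: under library totals the median log2 difference rose by 0.37 in both injury responses and moved by -0.14 in both knockout comparisons.

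The 10 genes and all lists were chosen with earlier results of these data known, and no list was tested as a set. The genes named beyond the 10 were Yap1 and Wwtr1, up to 2 called genes per direction of each list with the smallest adjusted p after injury, and the 5 genes most like Hamp and Hamp2; exceptions are stated where they occur. Shares of hepcidin reads carry exact binomial intervals, and ratios were compared by exact permutation (SciPy 1.17.1). Counting intervals and the floor of 3 counts for a count of 0 cover counting error only. Promoters came from RefSeq and transcripts from GENCODE M21, aligned with Biopython 1.88.

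Libraries of the same group differed by more than sampling noise (chi-square over its degrees of freedom 8.56 to 26.6, 12 pairs). In simulated counts, edgeR recovered 13% of 100 genes changed 2-fold and 84% of 100 changed 4-fold in the injury response of knockouts, and 18% and 77% in that of controls, with 4 false calls in each. In the knockout comparisons it recovered 12% and 83% in uninjured hepatocytes and 13% and 87% in injured ones, with 7 and 5 false calls. For the difference between responses it recovered 5% and 46%, with 4 false calls. Alternatives were RLE factors or library totals for scaling, testing with no low-count filter, DESeq2 1.42.0, a replicate block, fits of the 6 libraries compared, and leaving out each library in turn.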

Additional observations from a re-analysis of the deposited data

How the results depend on the processing

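Each comparison had 18 alternatives, or 17 for the difference between responses, which has no fit of 6 libraries. Single-gene values in the text gave 1097 that kept their direction and their side of the threshold, 80 that lost the call, 17 that gained it and 26 that turned, none of these called in either fit. The injury differences of Hamp2 carry no test and were counted as kept when they stayed within the SE of the main value. For this count alone, the difference between responses of Hamp2 was sorted by its adjusted p. With library totals the knockout difference of Tfr2 in uninjured hepatocytes was -0.0331, the injury difference in knockouts 0.361 for Tfrc, 0.20 for Fth1 and 0.292 for Trf, and that in controls 0.348 for Tfrc, 0.299 for Fth1, 0.289 for Trf and 0.228 for Hfe. For Tfrc in knockouts it was 0.00017 with RLE factors and 0.000154 with DESeq2. Over left-out libraries the difference between responses of Hamp2 was -0.0137 to 0.847, the injury difference in knockouts -0.304 to 0.123 for Tfrc and -0.16 to 0.0129 for Trf, and that in controls -0.37 to 0.20 for Tfrc, -0.60 to 0.257 for Fth1, -0.115 to 0.0046 for Trf and -0.50 to 0.39 for Hfe. With library totals the injury response of knockouts had 1814 genes higher and 406 lower (1016 and 900 with TMM), members 1 higher and 0 lower, and other iron genes 2 lower, and that of controls had 1974 higher and 698 lower (1137 and 1290 with TMM), with iron genes 13 higher and 4 lower. The members called higher in injured knockouts were also 1 with no low-count filter and 1 with DESeq2. In uninjured hepatocytes the knockout comparison called 75 genes higher and 135 lower with no low-count filter and 23 and 20 with DESeq2, against 0 in the edgeR fit. In injured hepatocytes it called 87 and 22 with no filter, with 2 members higher, 13 and 4 with DESeq2, and 2 and 3 in the fit of the 6 libraries compared. The difference between responses had 100 higher and 15 lower with no filter and 9 and 3 with DESeq2. The cause of these shifts was not tested, beyond that totals move the centre of all genes.

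With 1 library left out, the knockout injury response had 625 to 1284 genes higher and 516 to 1047 lower, members 0 to 1 higher and 0 to 1 lower, and iron genes 3 to 8 lower. That of controls had 763 to 1707 genes higher and iron genes 4 to 12 higher, the upper values without ctrl replicate 1. The knockout comparison had 0 to 1 genes higher and 0 to 1 lower in uninjured and 0 to 3 higher and 0 to 1 lower in injured hepatocytes. With an arm at 2 libraries, the spread is shared with the other groups.

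Replicate numbers are shared by the groups. Of the pairs of libraries with the same number, 7 of 18 had deviations that correlated above 0.1 (-0.152 to 0.323), against 7 of 36 pairs with different numbers (-0.354 to 0.273). As not every same-numbered pair did so, the libraries were taken to share only a number. Over 36 cases of a library and another group, the best correlation was with the same number in 15. Of the 12 libraries, 0 correlated best with their own number in every other group. Whether libraries of the same number share a batch is not settled by these counts. With a replicate block the iron genes called higher in injured controls were 8, against 5 without it; no count of members changed under the block. Shares of hepcidin reads rest on raw counts and do not move with scaling. The depth limited Ftl1 and Bmp6, which no comparison could use.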
